A study of Mus musculus with 5 samples.

Results

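The upper step of an FGF2 titration was examined, in which the dose was raised from 3 to 12 ng/ml. The single-cell library labelled 3 ng/ml FGF2 and that labelled 12 ng/ml FGF2 were compared, which are 2 of the 5 libraries of the series. Both held mouse epiblast stem cells (EpiSCs, the pluripotent cells of the epiblast after implantation, kept in culture) after 3 days in N2B27 medium with 1 µM CHIR99201 (Chi, a GSK3 inhibitor that activates Wnt signaling), 8 ng/ml BMP and the indicated dose of FGF2. The other libraries shared Chi and BMP and received 0 ng/ml FGF2, 0.75 ng/ml FGF2 or 30 nM of the FGF receptor inhibitor AZD4547 (FGFRi), for which no FGF2 dose is stated. According to the methods, the cells were of 1 wild-type line derived from the epiblast of a single embryo, and were maintained with FGF2, ActivinA and XAV939 before differentiation. Cell barcodes with at least 2500 detected genes and at most 10% mitochondrial unique molecular identifiers (UMIs, tags that count each captured RNA molecule once) were retained. This left 2125 cells at 3 ng/ml and 2406 cells at 12 ng/ml, in total 4531 of the 10653 retained cells of the series. As each dose was represented by 1 library, the spread between cultures is unknown. No test was run, and what the FGF2 dose changed and what differed between the 2 cultures cannot be told apart.

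FGF ligands bind receptor tyrosine kinases and act largely through the Ras/ERK cascade, which induces transcription factors of the Etv family together with its own inhibitors of the Sprouty, Spred and Dusp families. In the primitive streak, FGF acts with Wnt, BMP and Nodal signals: cells pass through an epithelial-to-mesenchymal transition, and T/Bra and Tbx6 direct paraxial mesoderm, whereas BMP promotes extraembryonic and lateral mesoderm and, in the epithelial cells, surface ectoderm.

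The depth of both libraries was similar. Retained cells held 64607114 UMIs at 3 ng/ml and 70776993 UMIs at 12 ng/ml, with medians of 28527 and 27452 UMIs and of 5312 and 5226 detected genes per cell. The median mitochondrial share was 4.19% and 4.13%, and the median share of ribosomal protein genes was 28.4% and 28.0%. The libraries had 2 deposited barcodes in common and no retained one. For each gene, the UMIs of all retained cells of a library were added up and scaled to the library's total, and this level is given in CPM (counts per 1000000 UMIs). Levels and ratios are given with exact 95% intervals in brackets where these matter, which cover counting error only. With summed UMIs, fewer cells of a type and less RNA per cell cannot be told apart. The summed level of 13 FGF/ERK target and feedback genes followed the labels, with 147 CPM with the FGFRi and 296, 407, 474 and 488 CPM at 0, 0.75, 3 and 12 ng/ml.

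Most transcript levels were nearly the same at both doses. Of 7929 genes that reached 10 CPM at 1 dose or both, 6511 (82.1%) differed by less than 1.1-fold, and the median log2 ratio of 12 over 3 ng/ml was -0.00. A rule of size was used in place of a test. A gene counted as higher when its level at the higher dose was at least 25% above that at the lower dose, and as lower when it was at least 20% below, which is the same fold, provided that at least 1 of the levels reached 10 CPM. By this rule 286 genes (3.61%) differed. At 12 ng/ml 155 genes (1.95%) were higher and 131 (1.65%) were lower. These shares are the background for all counts of list members given below. The same rule was met by 1169 of 8130 genes (14.4%) between 0 and 0.75 ng/ml, with 4.62% higher and 9.75% lower at the higher dose. Between 0.75 and 3 ng/ml it was met by 735 of 8036 (9.15%), with 3.41% higher and 5.74% lower. These neighboring steps share a library, so that only their counts and levels are set side by side. The SD of the log2 ratio over genes was 0.30, 0.23 and 0.14 along the 3 steps. Between 3 and 12 ng/ml, 75 genes passed 1.5-fold and 7 passed 2-fold, and all 7 of the latter were below 20 CPM in both libraries. Genes on either side of the limit lie close together: Greb1, at 101 and 80.4 CPM, was counted, whereas Wnt4, at 39.2 and 31.7 CPM (1.24-fold lower), was not.

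**Figure D1:**
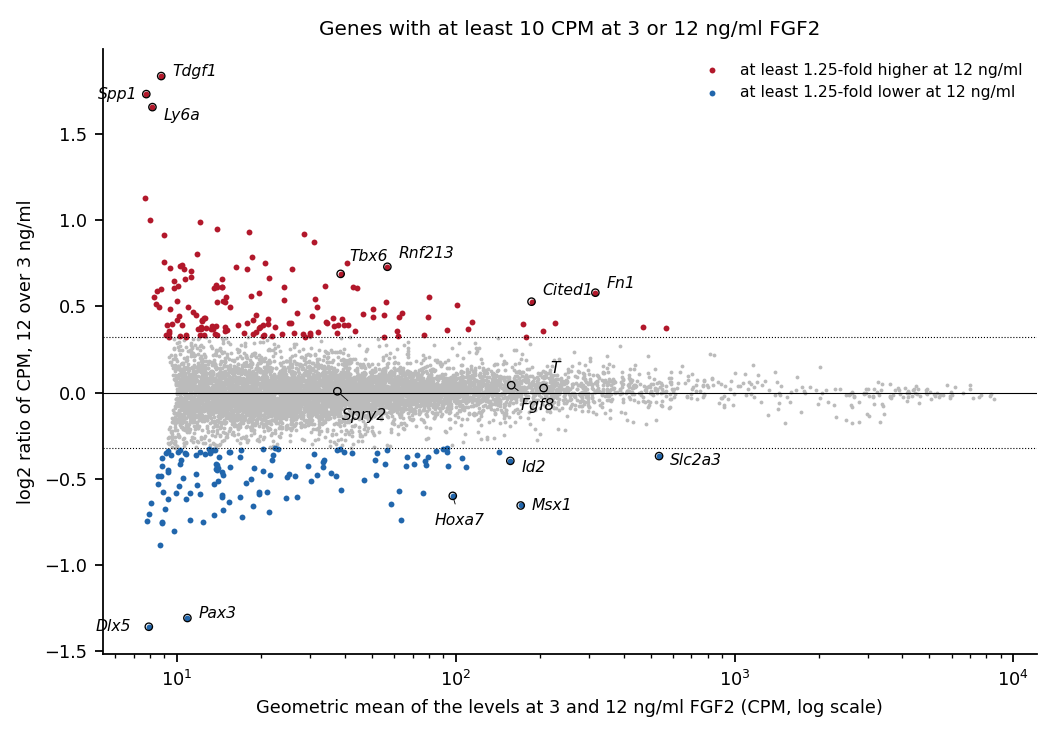
Each point is 1 of the 7929 genes with at least 10 CPM at 3 or 12 ng/ml, with the geometric mean of both levels on the x axis (CPM, log scale) and the log2 ratio of CPM, 12 over 3 ng/ml, on the y axis. Red and blue points are the 155 and 131 genes past the rule of size (dotted lines), and T, Fgf8 and Spry2 lie at the zero line while Tdgf1, Spp1 and Ly6a lie highest and Dlx5 and Pax3 lowest.

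The summed level of the FGF ligand genes over all cells differed little in the last step, while it differed within classes of cells, as given further on. Fgf8, the main ligand of the primitive streak, was at 24.5, 72.3, 156 and 160 CPM along the 4 doses, so that its ratio between 3 and 12 ng/ml was 1.03 [1.00, 1.06]. Fgf17 was at 50.4 and 48.9 CPM, Fgf3 at 27.2 and 29.2 CPM, Fgf15 at 12.9 and 13.9 CPM, and Fgf4 at 11.4 and 10.1 CPM. Of the 5 ligand genes that reached 10 CPM none passed the rule, and their list of 10 genes summed to 267 and 273 CPM at the 2 doses. Over the steps from 0 to 0.75 and from 0.75 to 3 ng/ml, the median log2 ratio of the same list had been 1.56 and 1.44. The receptors and adaptors showed little difference, with 0 of 7 measured genes past the rule. Fgfr1, the receptor through which FGF acts in nascent mesoderm, was at 61.9 and 72.3 CPM. Fgfr2 was below the limit of 10 CPM in both libraries, at 3.81 and 1.94 CPM, after 13.9 and 9.38 CPM at 0 and 0.75 ng/ml.

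Of the 13 measured FGF/ERK target genes 3 passed the rule between 3 and 12 ng/ml, next to 3.61% of all measured genes. At 12 ng/ml 2 were higher and 1 was lower, and the list had a median log2 ratio of 0.01, next to -0.00 over all measured genes. Etv1, an ETS transcription factor, went from 13.1 to 18.4 CPM (1.41-fold higher [1.29, 1.54]), and Spry4, an inhibitor of the Ras/ERK cascade, from 19.7 to 25.6 CPM (1.302-fold higher [1.21, 1.40]). Spred3, a further inhibitor of the cascade, went from 19.0 to 15.1 CPM (1.26-fold lower [1.16, 1.37]). The remaining 10 genes did not pass. Among them Dusp6, which removes the activating phosphates from ERK, was at 38.1 and 42.6 CPM, Spry2 at 37.5 and 37.7 CPM, Etv4 at 40.5 and 46.4 CPM and Etv5 at 37.1 and 32.1 CPM. The median log2 ratio of the list had been 0.52 and 0.24 over the lower steps. Immediate early genes, which respond to growth factors and to handling of cells within minutes, were partly higher at 12 ng/ml: Junb, Ier3 and Egr1 passed the rule among 6 measured genes. Egr1 was at 22.3 and 29.5 CPM (1.32-fold higher [1.24, 1.42]). The summed level of the immediate early list had been 483 and 330 CPM at 0 and 0.75 ng/ml, and was 249 and 276 CPM at the 2 doses.

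Of the BMP target genes 3 of 6 passed the rule as lower at the higher FGF2 dose and none as higher, while the BMP dose was the same. Of all measured genes 1.65% were lower and 1.95% higher. Msx1, a homeobox gene induced by BMP, was at 138, 237, 214 and 136 CPM along the doses, and thus 1.57-fold lower [1.53, 1.62] at 12 than at 3 ng/ml and close to its level without FGF2. Its relative Msx2 went from 44.0 to 31.5 CPM (1.40-fold lower [1.32, 1.48]), and Id2, an inhibitor of basic helix-loop-helix factors, from 180 to 137 CPM (1.32-fold lower [1.28, 1.35]). Id1 was at 193 and 180 CPM and Id3 at 249 and 215 CPM, while Smad7, a feedback inhibitor, was at 52.6 and 55.4 CPM. The list summed to 945 and 766 CPM at the 2 doses, and its median log2 ratio was -0.30. Of the BMP ligands, receptors and antagonists 1 of 7 passed, which was Bmp2 with 13.3 and 10.3 CPM (1.29-fold lower [1.16, 1.42]). Bmp4 was at 44.2 and 42.3 CPM over all cells, while it differed within some classes of cells, as given further on.

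Of the 10 measured Wnt target genes 4 were lower at 12 ng/ml, next to 1.65% of all measured genes. Rnf43 and Notum, which both dampen Wnt signaling, Axin2, the common feedback gene of the pathway, and the transcription factor Sp8 passed the rule, and no member of this list was higher by the rule. Notum went from 36.1 to 25.4 CPM (1.43-fold lower [1.34, 1.52]) and Axin2 from 90.1 to 69.6 CPM (1.29-fold lower [1.24, 1.34]). The other 6 did not pass, among them Lef1 at 148 and 176 CPM and Sp5 at 88.5 and 97.9 CPM, so that the list summed to 521 and 509 CPM. Among 6 measured Wnt ligand genes only Wnt3 passed, at 10.8 and 14.6 CPM (1.35-fold higher [1.22, 1.48]). Wnt6 and Wnt4 were at 50.9 and 42.0 CPM and at 39.2 and 31.7 CPM.

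The largest ratio of all 7929 genes was that of Tdgf1, the co-receptor of Nodal (chromosome 9, 110939603 to 110946158, GRCm38). It was at 0.546, 1.73, 4.64 and 16.6 CPM along the 4 doses, and thus 3.57-fold higher [3.14, 4.07] at 12 than at 3 ng/ml. The Nodal inhibitors Lefty1 and Lefty2 were at 18.6 and 21.2 CPM and at 10.9 and 11.9 CPM, and Nodal itself was below the limit in both libraries at 6.22 and 8.15 CPM. Of the primitive streak genes, Mixl1 went from 22.0 to 29.1 CPM (1.32-fold higher [1.24, 1.42]) and Lhx1 from 8.03 to 13.4 CPM (1.67-fold higher [1.501, 1.87]). T (T/Bra) itself was at 205 and 208 CPM over all cells, a ratio of 1.02 [0.994, 1.04], after 26.7 and 92.7 CPM at 0 and 0.75 ng/ml. Within classes of cells it differed in both directions, as given further on.

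Of the 7 measured genes of the presomitic and somitic list 4 were higher at 12 ng/ml and 1 was lower. The shares over all measured genes were 1.95% and 1.65%. The other 8 of the 15 members of the list were below the limit. Tbx6, which directs paraxial mesoderm (chromosome 7, 126781483 to 126785560, GRCm38), was at 5.86, 11.5, 30.4 and 49.0 CPM along the doses and 1.61-fold higher [1.52, 1.70] at 12 than at 3 ng/ml. The Notch ligands Dll3 and Dll1 went from 34.7 to 53.1 CPM (1.53-fold higher [1.45, 1.61]) and from 46.9 to 67.4 CPM (1.44-fold higher [1.37, 1.51]), and the forkhead factor Foxc1 from 11.3 to 17.2 CPM (1.53-fold higher [1.39, 1.68]). Hes7, the oscillating repressor of the segmentation clock, was at 92.7 and 102 CPM, and Rspo3, an enhancer of Wnt signaling, was at 410 and 432 CPM, so that neither passed. The fifth member past the rule, Pax3, marks the dorsal somite and also the neural plate border, and it was lower. It went from 17.1 to 6.92 CPM (2.47-fold lower [2.22, 2.76]), with 14.5 and 22.5 CPM at 0 and 0.75 ng/ml. Of the 9 measured Notch genes 4 were higher, namely both ligands and the Notch targets Nrarp (39.8 and 54.5 CPM, 1.37-fold higher [1.302, 1.44]) and Hes5 (9.09 and 11.9 CPM, 1.31-fold higher [1.18, 1.46]).

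Of the 6 measured caudal epiblast genes 3 were lower at 12 ng/ml and none was higher by the rule. Among all measured genes, 1.65% were lower and 1.95% higher. Sox2, shared by pluripotent, neural and neuromesodermal cells, went from 33.3 to 21.9 CPM (1.52-fold lower [1.42, 1.63]), and Nkx1-2, a marker of the caudal lateral epiblast, from 29.3 to 20.9 CPM (1.40-fold lower [1.31, 1.501]). The third gene was Greb1 (101 and 80.4 CPM), whereas Cdx2 did not pass and was at 218 and 185 CPM, 1.18-fold lower [1.15, 1.21]. In the surface and extraembryonic ectoderm list 4 of 6 measured genes were lower and 1 was higher, and the median log2 ratio was -0.57. Dlx5, a homeobox gene of the ectoderm and the neural plate border, went from 12.7 to 4.95 CPM (2.56-fold lower [2.26, 2.91]). Tfap2a and Tfap2c, the AP-2 factors of early ectoderm, went from 11.8 to 6.39 CPM (1.84-fold lower [1.64, 2.08]) and from 30.4 to 19.9 CPM (1.53-fold lower [1.42, 1.64]). Grhl3, a factor of surface epithelium, went from 14.2 to 9.81 CPM, while the keratin gene Krt19 was higher, at 17.5 and 22.7 CPM (1.3-fold higher [1.20, 1.40]). Further members of this list were below the limit at both doses, with Trp63 at 3.00 and 1.07 CPM and Dlx3 at 5.56 and 2.88 CPM.

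Epithelial genes as a group differed little in summed level over all cells, at 1099 and 1044 CPM. Within classes of cells they differed in both directions, as given further on. Esrp1, a splicing factor of epithelial cells, was 1.39-fold lower [1.296, 1.49] at 12 ng/ml and was the only 1 of 8 measured members past the rule. Cdh1 (E-cadherin) was at 93.6, 74.6, 45.3 and 39.7 CPM along the doses, 1.14-fold lower [1.08, 1.20] over the last step. Of the 7 measured genes of the epithelial-to-mesenchymal transition 2 were higher and none was lower by the rule. Snai1, the repressor of Cdh1, went from 14.0 to 22.9 CPM (1.64-fold higher [1.51, 1.78]), and the matrix gene Fn1 (fibronectin) from 259 to 387 CPM (1.49-fold higher [1.47, 1.52]). Cdh2 (N-cadherin) was at 113 and 122 CPM and Vim at 168 and 204 CPM. Hand1, the 1 lateral mesoderm gene that reached 10 CPM, was at 85.7, 45.9, 34.2 and 32.7 CPM along the doses.

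No Hox gene was higher at 12 ng/ml by the rule. Of 25 measured Hox genes 4 were lower, next to 1.65% of all measured genes. Hoxa7 (chromosome 6, 52214491 to 52221854, GRCm38) was at 78.4, 127, 120 and 79.2 CPM along the doses and was 1.51-fold lower [1.46, 1.57] at 12 than at 3 ng/ml. Hoxc4, Hoxc8 and Hoxc9, all of the HoxC cluster, were between 1.26-fold and 1.27-fold lower, with Hoxc8 at 162 and 127 CPM. Other members of high level lay closer together, with Hoxb9 at 266 and 228 CPM, Hoxd9 at 132 and 143 CPM and Hoxb8 at 129 and 118 CPM.

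Endoderm, neurectoderm and primordial germ cell genes were nearly absent from both libraries. No member of these lists reached 10 CPM, and their summed levels at 3 and 12 ng/ml were 2.40 and 1.81 CPM, 6.13 and 5.35 CPM and 10.0 and 9.58 CPM. In the hemato-endothelial list only Lmo2 was measured, at 19.5 and 29.8 CPM (1.53-fold higher [1.42, 1.64]), while the defining genes Tal1, Kdr, Etv2 and Cdh5 were below 1 CPM. Smooth muscle and mesenchyme genes, which summed to 2894 CPM at 0 ng/ml and to 944 and 1100 CPM at 3 and 12 ng/ml, had Tagln as their single member past the rule. It was at 478, 105, 22.9 and 42.0 CPM along the doses and thus 1.83-fold higher [1.72, 1.95] at 12 than at 3 ng/ml, while Acta2 was at 14.9 and 15.7 CPM.

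None of 13 measured proliferation genes passed the rule, and the list summed to 2168 and 2118 CPM at the 2 doses. Of 14 glycolysis and hypoxia genes 1 passed, the glucose transporter Slc2a3, which went from 609 to 472 CPM (1.29-fold lower [1.27, 1.31]) and had been at 796 and 900 CPM at 0 and 0.75 ng/ml. In the IGF system, which regulates growth, Igfbp2, Igfbp5 and Igf2 were lower and Igfbp4 was higher among 7 measured genes. Igf2 was at 272, 155, 95.3 and 75.3 CPM along the doses. The retinoic acid binding proteins went in opposite directions, Crabp1 from 68.5 to 92.8 CPM (1.35-fold higher [1.303, 1.41]) and Crabp2 from 109 to 81.1 CPM (1.35-fold lower [1.299, 1.39]). Of 7 stress and p53 target genes Trib3 was higher, at 8.06 and 10.6 CPM, and of 11 Eph receptor and ephrin genes Epha5 was lower, at 27.2 and 16.8 CPM (1.62-fold lower [1.501, 1.74]). Of 4 measured epiblast and pluripotency genes only Sox2, given above as a caudal gene, passed the rule. Over the signaling, tissue and metabolic lists given so far and the Hox genes, 52 of 202 distinct measured genes passed the rule. Over all 7929 measured genes it was 286 (3.61%). In lists of 6 to 14 measured genes, 1 gene past the rule is too few to tell from that share. This applies to Bmp2, Wnt3, Esrp1, Tagln, Slc2a3, Trib3 and Epha5, each the only such gene of its list. The lists were drawn up from pathways and tissues already known to respond to FGF in these libraries. The count of 52 is therefore no independent measure of their response.

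**Figure D2:**
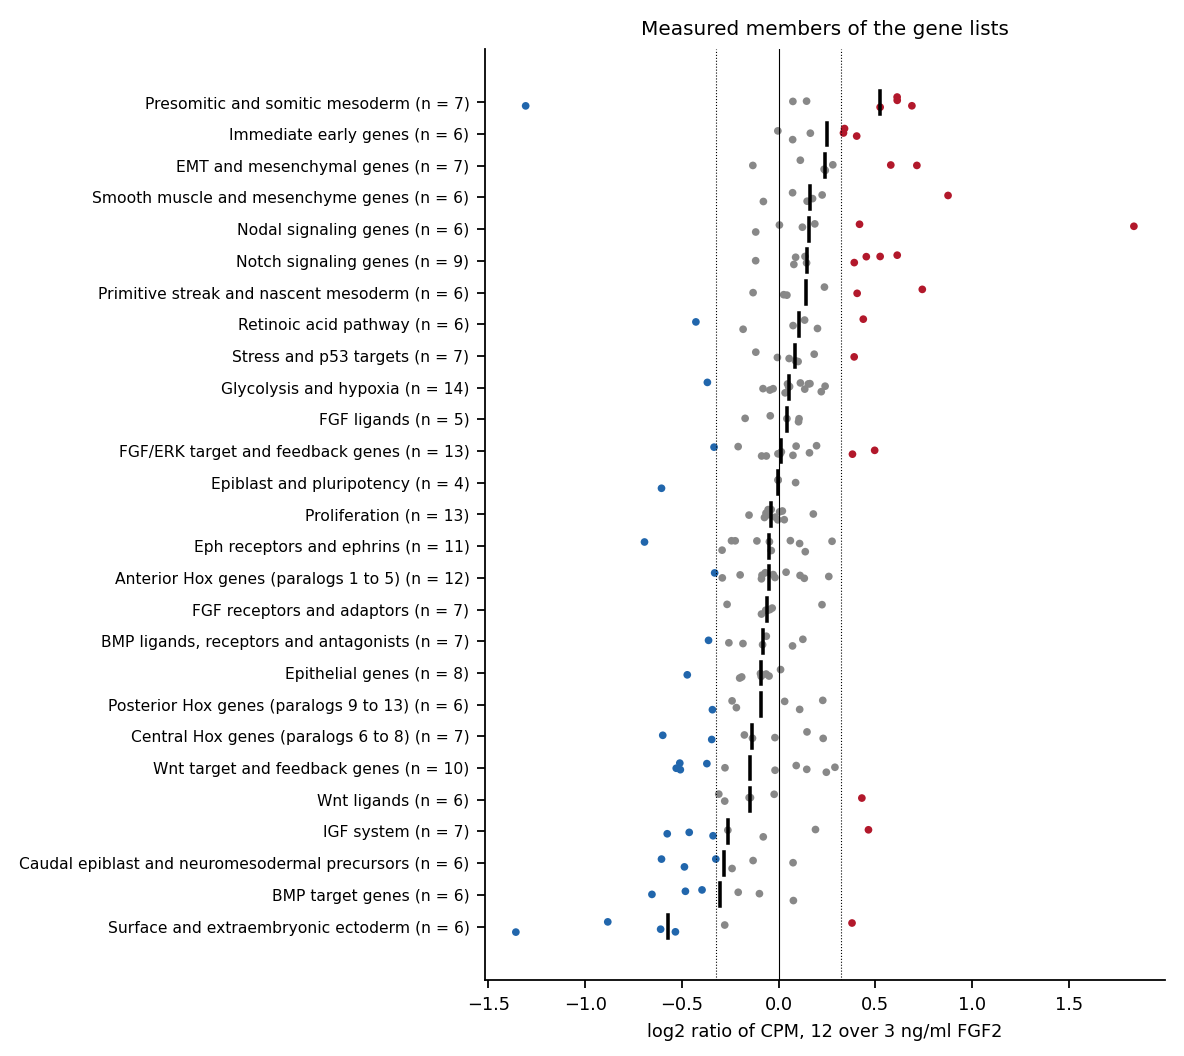
Points are the measured members of each gene list with at least 4 of them, by their log2 ratio of CPM, 12 over 3 ng/ml FGF2, and the black bar is the median of the list. Presomitic genes lie highest with a median of 0.52 and ectoderm and BMP target genes lowest with -0.57 and -0.30, while the medians of FGF ligands and FGF/ERK targets are 0.04 and 0.01, and red and blue points are past the rule of size (dotted lines).

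Among genes that reached 50 CPM at 1 dose or both, 29 were higher and 29 lower by the rule. The largest ratios belonged to Plxna2, a semaphorin receptor, with 31.5 and 53.01 CPM (1.68-fold higher [1.59, 1.78]), and Rnf213, a large ubiquitin ligase, with 44.1 and 73.1 CPM (1.66-fold higher [1.58, 1.74]). Next came Dll3, Wfdc2, Fn1, Anxa5, the transcriptional coregulator Cited1 (156 and 224 CPM), Dll1, Ly6e, Gng2, Igfbp4 and Nrarp. The largest decreases were those of Ptn, a secreted growth factor, with 82.0 and 49.1 CPM (1.67-fold lower [1.599, 1.74]), Msx1, and the metallothionein gene Mt2 with 73.0 and 46.7 CPM (1.56-fold lower [1.49, 1.63]). They were followed by Hoxa7, Zfp503, the PDGF ligand gene Pdgfa (76.2 and 51.3 CPM), Sp8, Ncam1, the apolipoprotein gene Apoe (126 and 93.2 CPM), Crabp2, Sall3 and Dlg1. Below 50 CPM, the genes past 2-fold were Tdgf1, Spp1 (3.32-fold [2.90, 3.81]), Ly6a (3.15-fold [2.77, 3.597]), Cnr1 (2.19-fold [1.92, 2.49]) and Anxa11 (2.004-fold [1.77, 2.27]) upward, and Dlx5 and Pax3 downward.

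The genes that differed between 3 and 12 ng/ml did not all extend a trend of the lower doses. Tbx6, Dll1, Dll3, Nrarp, Tdgf1, Etv1 and Spry4 were higher at each successive dose. T, Fgf8 and Fgf17, summed over all cells, were within 1.1-fold between 3 and 12 ng/ml. Tagln, Wfdc2, Anxa5, Anxa11, Spp1 and Junb were lowest at 3 ng/ml, and Spp1, which encodes the matrix protein osteopontin, was at 21.1, 4.68, 4.26 and 14.1 CPM along the doses. Msx1, Hoxa7 and Axin2 were highest at 0.75 ng/ml and at 12 ng/ml had come back to within 1.1-fold of their level at 0 ng/ml, as Axin2 was at 68.0, 91.7, 90.1 and 69.6 CPM. Tfap2a and Msx2 were lower at each successive dose. With 1 library per dose, a return of a level at the highest dose cannot be told apart from a feature of that culture.

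**Figure D3:**
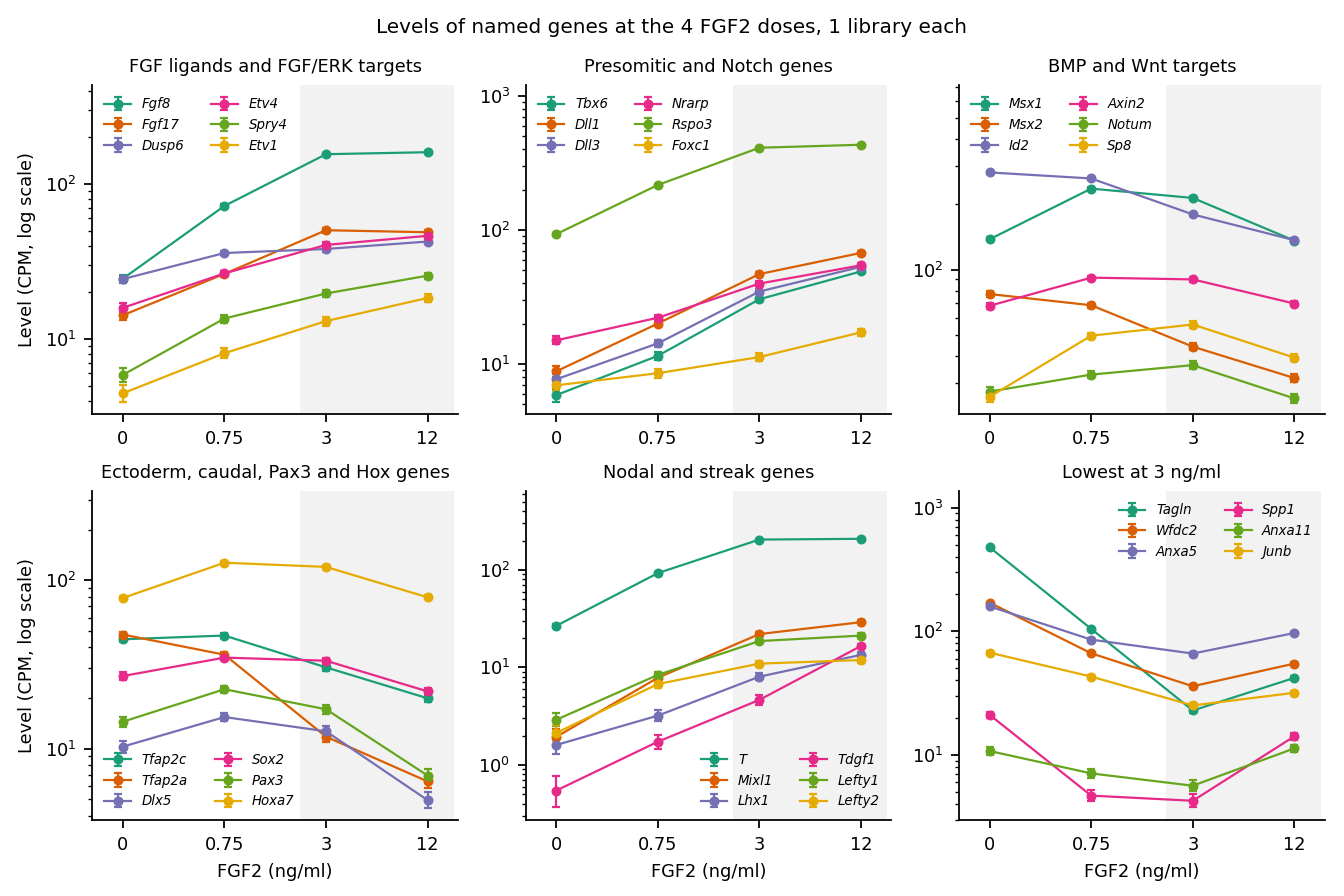
Levels of named genes are plotted in CPM on a log scale against the FGF2 dose in ng/ml, with exact Poisson 95% intervals (counting error only) and the step from 3 to 12 ng/ml shaded. In that step Fgf8 and T, summed over all cells, are flat at about 160 and 208 CPM. Tbx6, Dll1 and Dll3 go up, Msx1 goes down from 214 to 136 CPM, and the genes of the last panel turn upward from their lowest value.

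Promoters of the genes past the rule were searched on both strands for the letters of T-box, ETS and TCF/LEF binding motifs. T/Bra and Tbx6 are T-box factors, and ETS and TCF/LEF factors act downstream of ERK and Wnt. The windows were RefSeq promoters on GRCm38.p6, from 250 bases before to 50 bases after a transcript start, and were held by 118 of the higher and 90 of the lower genes. A gene can have several such windows, and a match in any of them was counted, with 155 windows for the higher genes, 131 for the lower and 8090 for the 6354 measured genes with a promoter. TCACACCT (T-box) was found in 3 promoters of the higher genes (2.54%) and in none of the lower, next to 0.818% of all measured genes with a promoter. CCGGAAGT (ETS) was found in 2 higher (1.69%) and 1 lower (1.11%), next to 11.6% of all measured genes. CTTTGAT (TCF/LEF) was found in 3 higher (2.54%) and 3 lower (3.33%), next to 2.91%. None of the 10 FGF/ERK target genes with a promoter held any of the motifs. The genes named above with a match were Wfdc2 for the T-box motif and Greb1 and Dlg1 for TCF/LEF. In Greb1 and Dlg1 the match was in 1 of 2 and in 1 of 4 windows. This window belongs to a transcript that starts far inside the gene, so that it is not shown. The Wfdc2 window (chr2:164562465-164562764, plus strand) begins after the annotated start of the gene at 164562413, so that its transcript also starts inside the gene. Wfdc2 was at 170, 66.3, 35.9 and 54.8 CPM along the 4 doses, and binding to this match was not tested. The window is shown 5′ to 3′ on the strand of the gene, with the matched letters in capitals. It is the example of a T-box match in a gene that was higher at 12 than at 3 ng/ml.
Wfdc2: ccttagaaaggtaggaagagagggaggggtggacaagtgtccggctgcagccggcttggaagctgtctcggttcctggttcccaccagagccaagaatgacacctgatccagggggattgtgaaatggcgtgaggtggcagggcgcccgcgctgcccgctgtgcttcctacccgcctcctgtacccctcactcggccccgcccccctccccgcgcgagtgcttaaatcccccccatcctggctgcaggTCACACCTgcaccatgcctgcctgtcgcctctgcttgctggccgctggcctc

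Shares of cells with at least 1 UMI of a gene were then computed. Each cell was thinned to 10000 UMIs, which left out 10 cells at 3 ng/ml and 9 cells at 12 ng/ml with fewer. Tbx6 was detected in 21.8% [20.1, 23.6] of cells at 3 ng/ml and in 31.5% [29.7, 33.4] at 12 ng/ml, or in 36.1% and 49.7% without thinning. The mean number of UMIs in a Tbx6-positive cell was 1.56 and 1.61. Since all cells held on average 0.339 and 0.509 thinned UMIs of Tbx6, the number in a positive cell lies near its minimum of 1 UMI, and these values do not tell more cells from more RNA per cell. Snai1 was detected in 10.6% and 17.98% of cells (23.2% and 35.4% without thinning), with 0.135 and 0.229 UMIs per cell, to which the same applies. Dll1, Dll3 and Rnf213 were detected in 24.5% and 35.0%, in 23.5% and 33.1%, and in 25.1% and 40.5% of cells. Fn1, at a higher level, was detected in 70.2% and 79.7% of cells with 3.29 and 4.41 UMIs in a positive cell. Tdgf1 was detected in 1.18% [0.766, 1.74] and 2.75% [2.14, 3.49] of cells (2.31% and 4.36% without thinning), with 2.36 and 4.08 UMIs in a positive cell.

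Among the lower genes, Msx1 was detected in 67.2% [65.2, 69.2] of cells with 3 ng/ml and in 52.8% [50.8, 54.8] with 12 ng/ml (81.8% and 70.2% without thinning), with 3.28 and 2.63 UMIs in a positive cell. The share of Pax3-positive cells was 13.9% [12.5, 15.5] and 6.05% [5.13, 7.08] (26.1% and 12.8% without thinning), that of Sox2-positive cells 22.2% and 16.6%, and that of Slc2a3-positive cells 82.3% and 68.0%. T was detected in 60.8% [58.6, 62.8] and 65.7% [63.8, 67.6] of cells (74.5% and 82.2% without thinning), but with 3.33 and 3.08 UMIs in a positive cell, while its summed level had a ratio of 1.02. Cdh1, Cdh2 and Hand1 differed by few percentage points after thinning, with 25.6% and 22.4%, 57.2% and 60.5%, and 16.4% and 15.8% of cells positive. Without thinning, Cdh1 was detected in 42.0% and 36.2% and Cdh2 in 75.1% and 80.8% of cells. The unthinned difference was -5.78 points for Cdh1, -6.27 for Epcam, -6.22 for Krt8 and -9.24 for Krt18. Some other epithelial genes differed more than Cdh1 after thinning. Epcam was detected in 57.4% and 51.5% of cells, Krt8 in 42.0% and 35.3% and Krt18 in 42.7% and 35.5%. Cldn7, at 15.2% and 11.9%, and Crb3, at 9.17% and 7.38%, differed by few points. Free RNA in the droplets gives UMIs to cells that do not express a gene. As a measure of it, cells with at least 3 of 9 ectoderm markers were taken as a class that should lack Tbx6, whichever presomitic markers they held. There were 260 and 138 such cells, with median depths of 26330.5 and 28402 UMIs, and Tbx6 was detected in 2.69% [1.09, 5.47] and 3.62% [1.19, 8.25] of them. Dll1 was detected in 5.77% and 5.797% and Dll3 in 6.15% and 5.797% of these cells. Hes7, a further presomitic marker, was detected in 25.8% and 23.2% of them, next to 48.0% and 51.1% of all cells. Tdgf1 was detected in 0.385% [0.00974, 2.12] and in 0 of 138, for which the exact upper limit is 2.64%, so that its share of 1.18% over all cells at 3 ng/ml lies within the interval of this class and 2.75% at 12 ng/ml lies just above that limit. T was detected in 18.8% [14.3, 24.1] and 24.6% [17.7, 32.7] of them. Conversely, cells with at least 2 of 5 presomitic markers, with median depths of 27891 and 26565 UMIs, held Cdh1 in 13.99% and 11.7% of cells. Krt8 was detected in 25.8% [23.3, 28.4] and 19.4% [17.5, 21.5] of these. The shares of all cells positive for Tbx6, Dll1, Dll3, T, Cdh1 and Krt8 were above these values in both libraries. For T and Krt8, however, these values differed between the libraries by about as many points as the shares of all cells, and in the same direction. Whether free RNA enters their differences was not tested.

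Cells were then classed by detected markers, as a description of ranges and not of cell types. The mesoderm gate (at least 2 of Tbx6, Msgn1, Hes7, Dll1 and Rspo3, without the ectoderm gate) held 52.6% [50.5, 54.8] of cells with 3 ng/ml and 63.1% [61.2, 65.1] with 12 ng/ml. Rspo3 was detected in 72.1% and 80.1% of all cells and Hes7 in 48.0% and 51.1%. These 2 widely detected markers are enough to meet the mesoderm gate. The ectoderm gate (at least 3 of Tfap2a, Tfap2c, Gata3, Krt7, Krt19, Wnt6, Dlx3, Dlx5 and Grhl3, without the mesoderm gate) held 10.5% [9.22, 11.9] and 4.88% [4.05, 5.82]. Along the lower doses, the mesoderm gate held 14.1% and 27.3% and the ectoderm gate 27.2% and 24.3% of cells at 0 and 0.75 ng/ml. Both gates were met by 1.80% and 0.876% of cells, and neither by 35.1% and 31.1%. Cells with UMIs of both T and Tbx6 made up 16.3% [14.7, 17.9] and 22.0% [20.3, 23.7], and cells with Tbx6 but no T 5.53% [4.596, 6.59] and 9.55% [8.41, 10.8]. Cells with neither were 33.7% [31.7, 35.8] and 24.7% [23.0, 26.5], and those with T but no Tbx6 were 44.5% [42.4, 46.6] and 43.7% [41.7, 45.7]. The last of these shares depended on the depth, as it was 41.9% and 37.5% without thinning and 38.96% and 39.8% at 5000 UMIs, and cells with both T and Tbx6 were 32.6% and 44.6% without thinning. By cadherin genes, cells with Cdh1 but no Cdh2 were 18.8% [17.1, 20.5] and 15.2% [13.8, 16.7], and cells with Cdh2 but no Cdh1 were 50.4% [48.2, 52.5] and 53.3% [51.3, 55.3]. Cells with both were 6.81% and 7.26% and cells with neither 24.1% and 24.3%. Without thinning, cells with both were 21.2% and 22.1% and cells with neither 4.05% and 5.07%. Cells with UMIs of Cdx2 but not Hand1 made up 68.5% [66.4, 70.4] and 63.8% [61.9, 65.8], and those with neither 15.2% [13.7, 16.8] and 20.4% [18.8, 22.03]. Cells with both Cdx2 and Hand1 were 13.5% [12.1, 15.0] and 12.0% [10.7, 13.3], and those with Hand1 alone 2.84% and 3.84%. Because the gates use genes whose levels differ between the libraries, a difference in a share and a difference in those genes are 1 measurement.

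**Figure D4:**
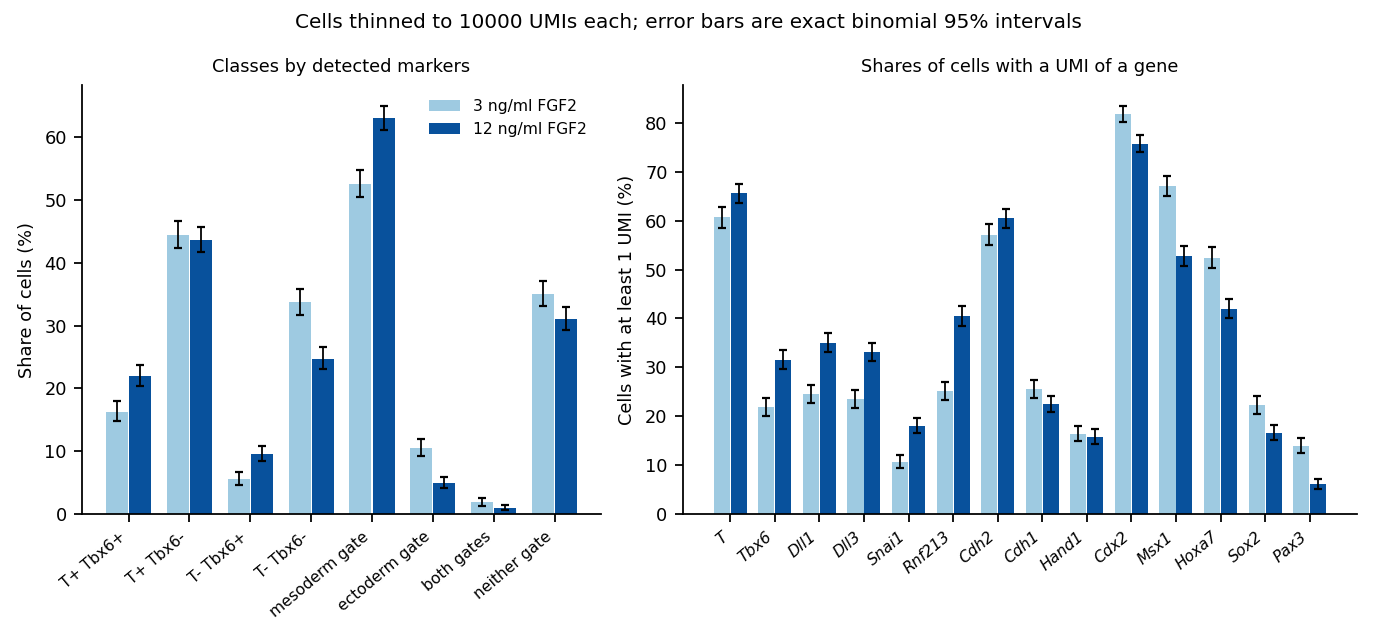
Bars give the share of cells in % at 3 ng/ml (light) and 12 ng/ml (dark) after thinning to 10000 UMIs, on the left for classes of cells by detected markers and on the right for cells with at least 1 UMI of a gene, with exact binomial 95% intervals (counting error only). The mesoderm gate is larger at 12 ng/ml (52.6% and 63.1%) and the ectoderm gate smaller (10.5% and 4.88%), and the largest drop on the right is that of Msx1.

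Levels were also compared within classes of cells, to see whether the differences were present in each. The thinned UMIs were summed in the 4 classes given by detection of Cdh1 and Cdh2. The class with neither gene depended on the depth. It held 24.1% and 24.3% of thinned cells, but 4.05% and 5.07% of cells without thinning. Most cells of the Cdh1- Cdh2- class thus held a cadherin UMI before thinning, and its values are not those of cadherin-negative cells. The class with both genes held 6.81% and 7.26% of thinned cells, but 21.2% and 22.1% without thinning. Part of the cells in the other classes thus held both genes before thinning. How this and free RNA of Cdh1 enter the ratios was not tested. Msx1 was lower at 12 ng/ml in each of the 4 classes, with 311 and 188 CPM in Cdh1+ Cdh2- cells, 243 and 154 CPM in Cdh1+ Cdh2+ cells, 165 and 111 CPM in Cdh1- Cdh2+ cells and 259 and 165 CPM in Cdh1- Cdh2- cells. Its ratios of 0.607 to 0.670 were near to each other, and all 4 intervals lay below 1. Hoxa7 likewise had ratios of 0.651 to 0.746, with every interval below 1, and the summed BMP target genes had ratios of 0.782 to 0.888. In contrast, the summed FGF/ERK target genes were at 423 and 460 CPM in Cdh1+ Cdh2- cells, at 550 and 533 CPM in Cdh1+ Cdh2+ cells, at 473 CPM in Cdh1- Cdh2+ cells of both libraries and at 459 and 479 CPM in Cdh1- Cdh2- cells, with ratios between 0.970 and 1.09. Their summed level was thus within 1.1-fold in each class, while some members differed. In Cdh1+ Cdh2- cells Dusp5 went from 7.05 to 16.2 CPM and Etv4 from 23.2 to 37.1 CPM, with intervals of the ratio above 1. So were those of Etv4 and Spry4 in Cdh1- Cdh2- cells and of Spry4 in Cdh1- Cdh2+ cells. In the latter, Spred3 went from 19.06 to 12.45 CPM, and the intervals of Spred3, Dusp4, Etv5 and Il17rd lay below 1. That of Spred3 also did in Cdh1- Cdh2- cells. The summed FGF ligand genes differed in both directions. They went from 147 to 197 CPM in Cdh1+ Cdh2- cells (ratio 1.34 [1.20, 1.496]) and from 212 to 270.4 CPM in Cdh1- Cdh2- cells (1.27 [1.18, 1.38]), but from 331 to 296 CPM in Cdh1- Cdh2+ cells (0.892 [0.852, 0.934]), and were at 371 CPM in Cdh1+ Cdh2+ cells of both libraries. Etv1 had ratios of 2.40, 1.05, 1.751 and 1.245, with intervals that included 1 in both of the classes with the lowest ratios.

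Some ratios were unlike between classes. Those of Plxna2 and Nkx1-2 lay on both sides of 1, although for Nkx1-2 the interval of the ratio above 1 included 1. Plxna2 went from 41.6 to 74.7 CPM in Cdh1- Cdh2+ cells (ratio 1.80 [1.603, 2.01]) and from 19.8 to 48.1 CPM in Cdh1- Cdh2- cells (2.42 [1.92, 3.07]). In Cdh1+ Cdh2- cells it went from 18.1 to 12.1 CPM, a ratio of 0.667 [0.447, 0.983], from 72 and 44 UMIs. Nkx1-2, lower over all cells, had a ratio of 0.634 [0.532, 0.756] in Cdh1- Cdh2+ cells and of 1.23 [0.922, 1.66] in Cdh1+ Cdh2- cells, and Fn1 had ratios of 1.07 to 1.65 over the classes. T had a ratio of 1.37 [1.21, 1.55] in Cdh1+ Cdh2- cells and of 0.877 [0.828, 0.928] in Cdh1- Cdh2+ cells. In the Cdh1+ Cdh2+ and Cdh1- Cdh2- classes its interval included 1. The summed epithelial genes went from 1262 to 1678 CPM in Cdh1+ Cdh2+ cells, with an interval of the ratio of [1.254, 1.411]. In Cdh1- Cdh2- cells they went from 1168 to 883 CPM, with an interval of [0.7285, 0.7853]. In the Cdh1+ Cdh2- and Cdh1- Cdh2+ classes their sum was within 1.1-fold. Bmp4 had intervals that included 1 in each cadherin class. By gate, its ratio was 0.787 [0.675, 0.918] in the mesoderm gate, 1.79 [1.37, 2.33] in the ectoderm gate and 1.29 [1.12, 1.47] in cells of neither. The differences in ratio between classes were not tested. T-negative cells are those without a T UMI after thinning, and they depended on the depth. Cells with neither T nor Tbx6 were 33.7% and 24.7% after thinning, but 22.0% and 12.8% without it. Cells with Tbx6 but no T were 5.53% and 9.55%, but 3.48% and 5.07% without it. Part of the T-negative cells thus held T before thinning, and how this enters the ratios was not tested. Tbx6 had ratios of 1.28 [1.15, 1.44] in T-positive cells and 2.08 [1.74, 2.49] in T-negative cells. Its levels were 41.2 and 52.9 CPM in the former and 22.7 and 47.1 CPM in the latter. Rnf213 was at 50.7 and 75.2 CPM in T-positive cells and at 30.8 and 71.0 CPM in T-negative cells. Fgf8 was at 214 and 204 CPM in T-positive cells and at 68.1 and 80.0 CPM in T-negative cells. Tdgf1 rested on 53 and 193 thinned UMIs in T-positive cells and on 6 and 76 in T-negative cells.

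**Figure D5:**
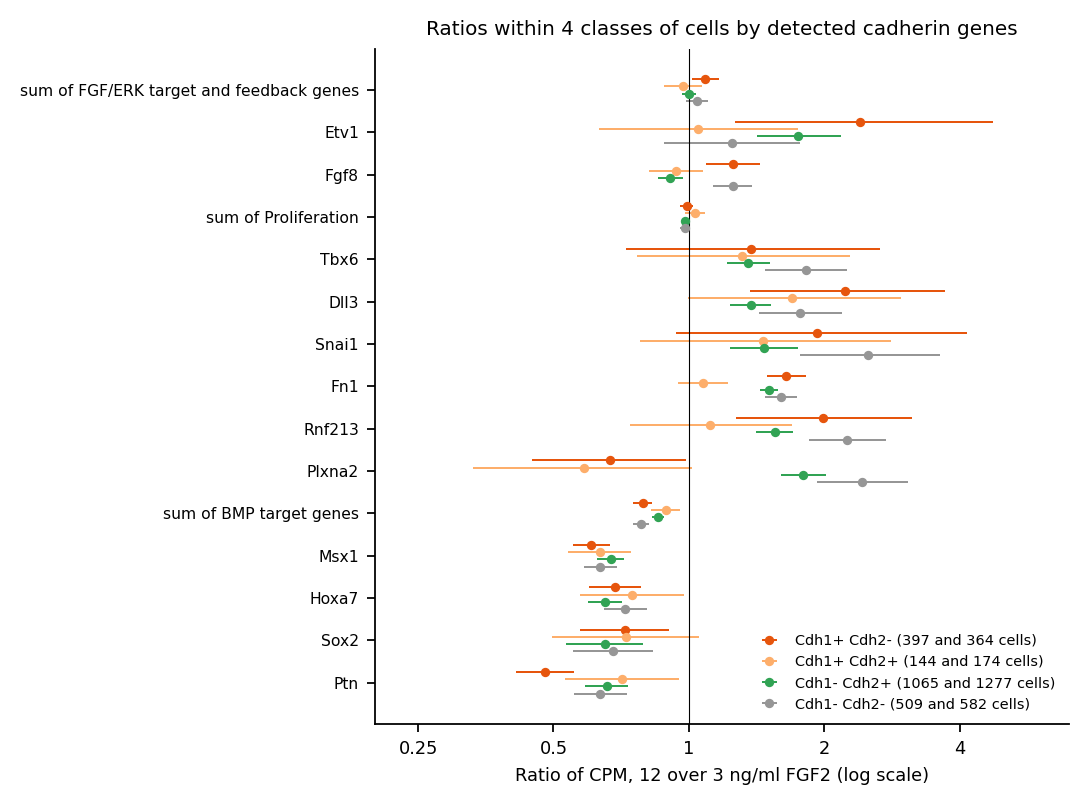
Ratios of CPM, 12 over 3 ng/ml FGF2 (log scale), are shown for genes and summed lists within 4 classes of cells by detected Cdh1 and Cdh2, with exact conditional 95% intervals (counting error only) and the number of cells at 3 and 12 ng/ml in the legend. Msx1, Hoxa7 and Sox2 lie left of 1 in all 4 classes, the summed FGF/ERK target and proliferation genes lie close to 1, and Plxna2 lies left of 1 in both Cdh1-positive classes and right of 1 in the others.

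The spread between cells was compared for whole lists, as the range over the cells of a library. The summed UMIs of the FGF/ERK target list in a thinned cell had a median of 4 and quartiles of 3 and 6 at both doses, and 1.70% and 1.79% of cells had none. At 0 ng/ml the median had been 3 and 13.5% of cells had none. The presomitic list had a median of 5 UMIs at 3 ng/ml, with quartiles of 2 and 10, and a median of 7 at 12 ng/ml, with quartiles of 3 and 12. The ectoderm list had no UMI in 52.6% and 63.4% of cells, and the epithelial list had none in 28.1% and 36.1% of cells while its highest 5% of cells began at 45 and 48 UMIs. The epithelial list thus had more cells without a UMI at 12 ng/ml, and its upper end was similar. For proliferation genes the median was 20 UMIs at both doses, with quartiles of 15 and 26 at 3 ng/ml and of 16 and 25 at 12 ng/ml.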

How the data were processed

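The authors deposited raw UMI counts per gene and barcode (10x Genomics 3′ libraries, 1 per condition), before the filters on detected genes and mitochondrial UMIs. The 3 and 12 ng/ml libraries held 3067 and 3437 barcodes, and the retained cells carried 96.8% and 96.9% of the deposited UMIs. Their methods name Cell Ranger and the mm10 genome, with the pipeline version differing between the methods and the file headers. Doublets were not removed. From the counts, barcodes with at least 2500 detected genes and at most 10% mitochondrial UMIs were retained, UMIs were summed per gene and library, and CPM were computed with Python 3.11.15, NumPy 2.4.6, pandas 2.3.3 and SciPy 1.17.1 (exact Poisson, conditional and binomial 95% intervals, counting error only). No test was run, since each dose had 1 library. Genes were described by a rule of size, at least 10 CPM at 1 dose or both and a level at least 25% above or 20% below that at the lower dose. Cells were thinned to 10000 UMIs with a fixed seed for shares and classes. The scripts were tested on simulated data. Genes were named if they were list members past the rule or with a role described, if they were among the 12 largest ratios in each direction at 50 CPM or more (unnamed predicted, mitochondrial and ribosomal genes excepted), or if they passed 2-fold; T, Tbx6, Hand1, Cdx2, Cdh1 and Cdh2 were always named. Values of some list members are not reported here. The members and gene lists were chosen with earlier results of these data known. Alternatives were another scaling (edgeR 4.0.16 TMM, DESeq2 1.42.0 size factors, in R 4.3.3), other cell filters, other limits and folds, equal weight for each cell and exclusion of the 5% deepest cells. Positions are of GENCODE annotation on GRCm38, and figures were drawn with Matplotlib 3.10.9.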

Additional observations from a re-analysis of the deposited data

How the results depend on the processing

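The count of 286 genes past the rule became 58 with a minimum of 50 CPM, 3769 with a minimum of 10 UMIs over both libraries in place of 10 CPM, 75 at 1.5-fold and 7 at 2-fold. These follow from the limits themselves. Under 7 other settings (5% mitochondrial limit, 1000 detected genes, TMM, DESeq2 size factors, equal weight per cell, no mitochondrial or ribosomal genes, no 5% deepest cells) it lay between 277 and 370. The step from 0.75 to 3 ng/ml had 262 genes at 1.5-fold instead of 735. Of the 202 measured list genes, 44 had a share of positive cells that differed by at least 5 points, and 24 after thinning to 5000 UMIs. The same count was not made over all measured genes, so that these numbers have no background and describe the settings only. The mesoderm gate was larger at 12 ng/ml by 10.5 points, and by 9.59 to 10.3 under the alternatives. Other classes depended more on the depth. The ectoderm gate was smaller (-5.62 points), with -2.07 after thinning to 5000 UMIs. Cells with T but no Tbx6 differed by -0.77 points, by 0.811 at 5000 UMIs and by -4.35 without thinning, and cells with both by 5.72, 4.40 and 12.0 points. Cells with Tbx6 but no T differed by 4.02 points and by 1.59 without thinning, cells with Cdh1 but no Cdh2 by -3.59 and -6.72, cells with Cdh2 but no Cdh1 by 2.92 and 4.76, and cells with neither Cdx2 nor Hand1 by 5.18 and 2.88. Cells with neither cadherin differed by 0.214 points and by -1.04 to 1.02 under the alternatives. Cells of neither gate differed by -3.96 points, by -8.29 at 5000 UMIs and by -0.703 without thinning, and those of both gates by -0.921, 0.0196 and -4.04. As an alternative chosen after seeing the data, the classes used for free RNA were also taken without cells holding the markers of both gates, which gave Tbx6 in 1.35% and 0.855% and Dll1 in 2.25% and 2.56% of cells with ectoderm markers. Of the 71 named genes past the rule, 64 passed it under all 7 of these settings, none turned its direction, and Greb1, Hoxc4, Ier3, Hoxc9, Junb, Spred3 and Spry4 missed it under at least 1. TMM and DESeq2 size factors moved the ratios of all genes by 0.01 (log2). No paired analysis was possible because each dose has 1 library and the groups share only the replicate number 1. With 1 library per dose no library could be left out, and the depth limits genes below 10 CPM most.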

Other observations

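Among the largest ratios were Rnf213, Ly6a and Ly6e, which are known to respond to interferon, and 2 annexin genes. Lists of both families were therefore drawn up after these values were seen, so that their counts describe the libraries and support nothing. Of 12 measured interferon-stimulated and antigen presentation genes, 7 were higher at 12 ng/ml by the rule of size and none was lower. Over all measured genes 1.95% were higher. The list had a median log2 ratio of 0.39. Isg15, a ubiquitin-like protein induced by interferon, was at 3.41, 6.05, 15.9 and 26.8 CPM at 0, 0.75, 3 and 12 ng/ml (1.68-fold higher [1.56, 1.82] over the last step). Ifitm3 was at 47.2 and 64.4 CPM, whereas the major histocompatibility genes H2-K1 and H2-D1 were at 31.7 and 34.0 CPM and at 27.1 and 26.3 CPM. The members thus did not all differ alike, and the list summed to 538, 608, 730 and 902 CPM along the doses.

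Annexins, which bind phospholipids in the presence of calcium, followed another course. Their list summed to 627, 305, 216 and 291 CPM at 0, 0.75, 3 and 12 ng/ml and to 1428 CPM with the FGFRi. Of 8 measured annexin genes 6 were higher at 12 than at 3 ng/ml, among them Anxa1 with 8.95 and 15.6 CPM (1.745-fold higher [1.58, 1.93]) and Anxa2 with 43.4 and 58.8 CPM (1.35-fold higher [1.29, 1.42]). All 6 were lowest at 3 ng/ml among the 4 doses.

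Some genes below 10 CPM in both libraries also differed beyond their counting interval. Aldh1a2, the enzyme that makes retinoic acid in the paraxial mesoderm, was at 2.24, 1.28, 3.84 and 9.62 CPM along the doses (2.51-fold higher [2.16, 2.91] over the last step), and Msgn1, a presomitic factor, was at 1.53 and 2.66 CPM at 3 and 12 ng/ml. Fgfr2 was 1.97-fold lower [1.59, 2.44] and Trp63, a factor of stratified epithelium, 2.80-fold lower [2.13, 3.70] at 12 ng/ml.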
